A study of Mus musculus with 9 samples.

Results

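The E2F transcription factors and the pocket proteins that bind them are described here through 10 genes, taken by their exact symbols from the 38197 symbols of the deposited tables: E2f1, E2f2, E2f3, E2f4, E2f5, E2f7, E2f8, Rb1, Rbl1 and Rbl2. All 10 had enough counts to be tested, among 14742 genes that passed a filter on low counts. The study followed neural stem cells (NSCs) of the ventral hindbrain, made from mouse embryonic stem cells (ESCs), through the days in which they change the type of neuron they produce. Wild-type cells of strain 129, of the ESC line E14.1, were grown as a monolayer and received retinoic acid (RA) together with SAG, an agonist of the Shh pathway, which the labels place at days 0 to 3. At 4.5, 5.5 and 6.5 days in differentiation conditions (DDC) cells were sorted for prominin-1, which neural progenitors carry on their surface, and polyadenylated RNA was sequenced from 3 libraries per time point. One field of the labels writes these times as days 4, 5 and 6, and the other as used here. A single ESC line was followed, the groups differ by time alone, and no untreated culture was compared here.

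Summed counts per library ran from 11244489 to 17820600 at 4.5DDC (median 14390493), from 11066572 to 25506192 at 5.5DDC (median 11573528) and from 12851795 to 16479971 at 6.5DDC (median 15913820). The 10 genes had between 167 counts (E2f2) and 3362 counts (E2f5) in a library, far from the 3 counts taken as the floor of detection. Levels are given as CPM, the counts of a gene relative to the library total after TMM scaling, which corrects that total for the makeup of each library, and as CPM per exonic kilobase wherever genes are compared with each other. The libraries numbered replicate 1 stood apart from those numbered 2 and 3. Summed FPKM (fragments relative to transcript length and to the mapped reads of a library) of 9 neuronal marker genes was lowest in replicate 1 at each time, at 232 against 583 and 394 at 4.5DDC, at 202 against 665 and 684 at 5.5DDC, and at 360 against 806 and 833 at 6.5DDC. For that reason the change within replicate 1 and the change of the mean of replicates 2 and 3 stand beside the results.

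E2F proteins bind the promoters of genes for DNA synthesis and mitosis, mostly as dimers with a DP protein. E2f1, E2f2 and E2f3 are the activators, which pocket proteins silence early in G1 and release once cyclin-dependent kinases phosphorylate the pocket protein, whereas E2f4 and E2f5 act mainly as repressors together with Rbl1 (p107) and Rbl2 (p130), and E2f7 and E2f8 repress without DP or pocket protein. In neural progenitors this circuit sits at the passage from cycling to cell cycle exit, and Rb1 and Rbl2 are known from cells that leave the cycle.

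Several of these genes are themselves known E2F targets, and the sequences that E2F proteins prefer can be seen next to their start sites. In the RefSeq promoter set (build GRCm38.p6, 250 bases before to 50 after the start), 7 of the 10 genes had a window; E2f4, E2f5 and Rb1 had none. The windows were searched on both strands for TTTCCCGC, TTTCGCGC, TTTGCCGC and TTTGGCGC, of which none is the reverse complement of another. A match was found for 4 of these 7 genes (57.1%), against 704 of all 27025 genes with a window (2.605%). The 4 matches are shown to let the letters be read beside the changes given below, each as 30 bases on the strand of the gene, 5′ to 3′, with the match in capitals.

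E2f2: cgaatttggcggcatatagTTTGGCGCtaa
E2f3: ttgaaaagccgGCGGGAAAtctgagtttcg
E2f7: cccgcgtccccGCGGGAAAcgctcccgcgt
Rbl1: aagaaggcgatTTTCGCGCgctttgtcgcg

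The E2f2 stretch is chr4:136172294-136172323 on the plus strand, and its match begins at base 40 of the RefSeq transcript, upstream of the GENCODE start of the gene. In E2f3 (chr13:29986056-29986085, minus strand) the match begins 11 bases before the start, and in E2f7 (chr10:110745230-110745259, plus strand) it begins at position −198 from the start, both as the reverse complement GCGGGAAA of the first motif. In Rbl1 (chr2:157204534-157204563, minus strand) it begins 18 bases before the start. No match to these letters was found in the windows of E2f1, E2f8 and Rbl2. By the test described below, the genes with a match (E2f2, E2f3, E2f7 and Rbl1) were lower at 6.5DDC. Of those without one, E2f1 and E2f8 were lower and Rbl2 was higher. Binding was not measured, so a match describes the letters only.

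Among the 7 E2F genes of the set E2f5 and E2f4, the repressors, had the highest means at each time. E2f5 stood first, with means of 68.8, 62.6 and 67.5 CPM per exonic kilobase at 4.5, 5.5 and 6.5DDC. E2f4 followed at 32.2, 27.7 and 18.3 CPM per exonic kilobase, and E2f3 was the most abundant activator, at 21.6, 17.1 and 12.8. The library ranges of E2f5 and E2f4 did not overlap at any time. At 4.5DDC the next places went to E2f3, Rbl1 (17.0), E2f1 (14.5) and Rb1 (13.5), each overlapping its neighbor in this order, then to E2f8 (10.03), to E2f2 (6.87) and E2f7 (6.34), which overlapped each other, and lastly to Rbl2 at 3.07 CPM per exonic kilobase. At 5.5DDC the order ran E2f5, E2f4, E2f3, Rb1, Rbl1, E2f1, E2f8, E2f2, Rbl2 and E2f7, with overlap between neighbors from E2f3 to E2f1 and again from E2f8 to E2f7. By 6.5DDC Rb1 (18.2) was level with E2f4 within their spread, Rbl2 (5.85) overlapped E2f1 (5.83), and E2f7 was last at 1.63 CPM per exonic kilobase. The deposited FPKM placed E2f5, E2f4 and E2f3 in the first 3 places at 4.5DDC as well, but ordered several lower genes differently. E2f6, a repressor that works without pocket proteins and is listed below with the partners, is outside this order. On the FPKM scale it had means of 59.2, 57.6 and 60.01, close to 58.7, 55.2 and 57.9 for E2f5. The ratio of FPKM to CPM, taken here without TMM scaling, should be fixed for a gene of fixed length. Between the libraries it varied by a factor of at most 1.11 for E2f1, E2f3, E2f4, E2f5 and Rbl1 and of 1.56 to 1.84 for E2f2, E2f7, E2f8, Rb1 and Rbl2, and the comparisons over time therefore use counts.

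**Figure D1:**
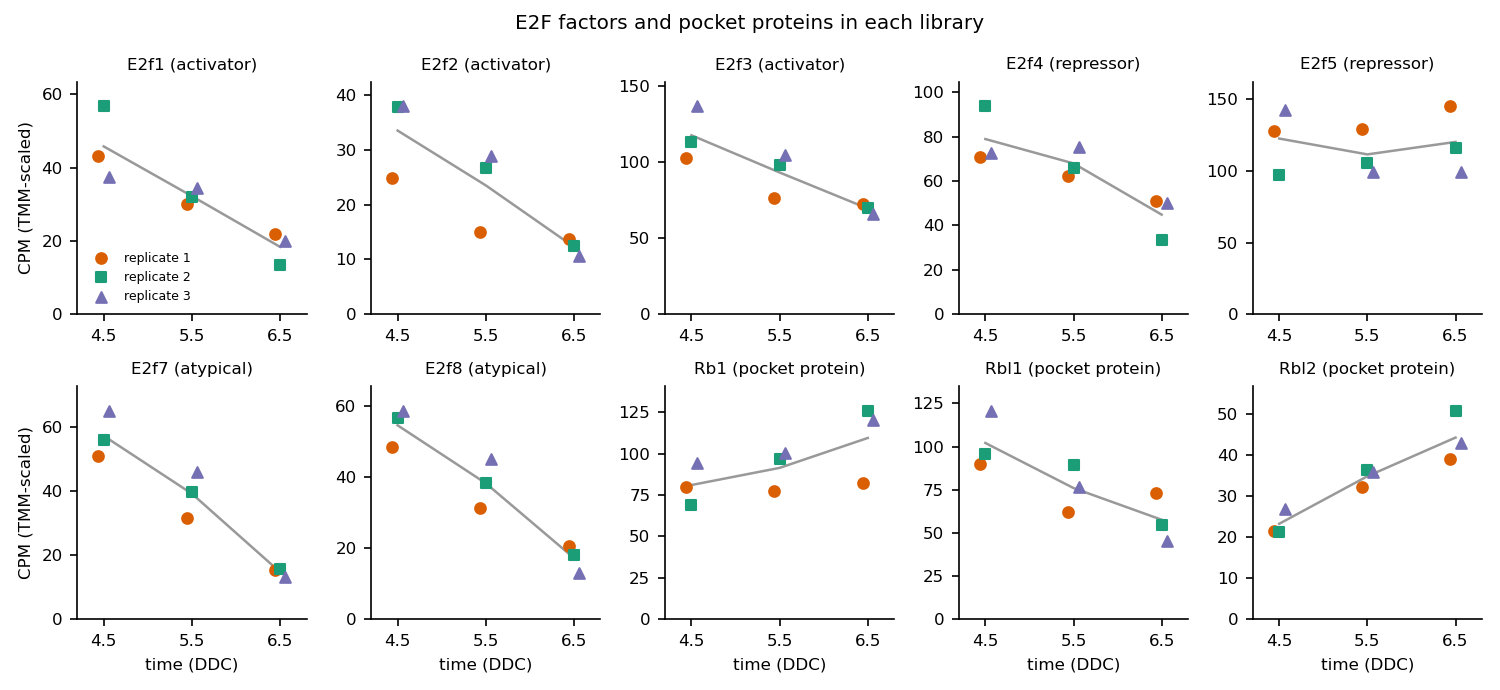
Level of each of the 10 genes in CPM (y axis, from 0) against DDC, with a point for each library (replicate 1 orange circles, replicate 2 green squares, replicate 3 purple triangles) and a grey line through the means. E2f7 falls from 50.9 to 64.8 CPM at 4.5DDC to 13.1 to 15.7 CPM at 6.5DDC, E2f5 stays between 97.1 and 145 CPM, and Rbl2 climbs from 21.2 to 26.9 CPM to 39.1 to 50.6 CPM.

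Over the full interval from 4.5DDC to 6.5DDC most of the circuit fell. The 3 activators, the repressor E2f4, both atypical factors and Rbl1 were lower at 6.5DDC, Rbl2 was higher, and E2f5 and Rb1 did not pass the test. A gene was called when its p-value from edgeR's quasi-likelihood test, adjusted by the Benjamini-Hochberg method over all genes tested, was under 0.05. By this rule 7 of the 10 genes were called lower, where 9.53% of all genes were, and 1 was called higher, where 9.21% were. The 3 libraries of 6.5DDC lay below all 3 of 4.5DDC for the same 7 genes (17.6% of all genes) and above them for Rbl2 (17.5% of all genes). The median log2 fold change of the 10 genes was −0.82 against 0.0040 over all genes tested. Within replicate 1 that median was −0.49, and in replicates 2 and 3 it was −1.06, against 0.019 and −0.018 over all genes. Without 1 library the count called ran from 6 to 9. The calls among all genes moved with the library left out as well. Leaving out replicate 2 of 6.5DDC gave 551 of all 14872 genes lower and 574 higher. Leaving out replicate 1 of 6.5DDC gave 1555 of all 15145 genes lower and 1577 higher. In replicates 2 and 3 alone, a fit chosen after seeing the data, 7 of the 10 were called lower and 2 higher (14.8 and 16.5% of all genes). The p-values measure only the spread between these libraries, since the labels do not say that they came from separate cultures. In bulk RNA a smaller share of cycling cells and less RNA per cell cannot be told apart.

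E2f1 to E2f3, the activators that drive entry into S phase, were lower at 6.5DDC. E2f1 (chr2:154559407-154569892) stood at 43.3, 56.7 and 37.3 CPM in replicates 1, 2 and 3 of 4.5DDC, at 30.1, 32.1 and 34.4 CPM at 5.5DDC and at 21.9, 13.3 and 19.9 CPM at 6.5DDC. The 3 time points of E2f1 did not overlap. From 4.5DDC to 6.5DDC it fell 2.49-fold (log2 fold change −1.32, SE 0.22, n = 3 per time point; edgeR quasi-likelihood, Benjamini-Hochberg adjusted p = 0.00535), by −0.98 within replicate 1 and −1.49 in replicates 2 and 3.

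E2f2 (chr4:136172394-136196057), the least abundant activator, measured 24.8, 37.9 and 37.9 CPM at 4.5DDC, 15.0, 26.6 and 29.0 CPM at 5.5DDC and 13.7, 12.5 and 10.7 CPM at 6.5DDC. All 6.5DDC libraries were below all earlier ones. Replicate 1 was the low library at 4.5DDC and at 5.5DDC. These 2 time points overlapped because replicate 1 of 4.5DDC lay below replicates 2 and 3 of 5.5DDC. The fall of E2f2 was 2.72-fold (log2 fold change −1.45, SE 0.28; edgeR quasi-likelihood, Benjamini-Hochberg adjusted p = 0.00836), with −0.85 within replicate 1 and −1.70 in replicates 2 and 3.

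E2f3 (chr13:29906575-29986063), whose locus makes an activating and a shorter isoform that these counts do not separate, had 103, 113 and 136 CPM at 4.5DDC, 76.4, 97.98 and 105 CPM at 5.5DDC and 72.4, 70.0 and 65.9 CPM at 6.5DDC. Its 6.5DDC libraries were close together and below every other library. E2f3 fell 1.69-fold (log2 fold change −0.76, SE 0.16; edgeR quasi-likelihood, Benjamini-Hochberg adjusted p = 0.0116), the smallest change of the activators, with −0.50 within replicate 1 and −0.87 in replicates 2 and 3.

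The repressors E2f4 and E2f5, partners of the pocket proteins in quiescent and early G1 cells, differed. E2f4 (chr8:105297663-105305370) gave 70.7, 93.6 and 72.4 CPM at 4.5DDC, 62.3, 66.004 and 75.5 CPM at 5.5DDC and 51.1, 33.2 and 50.2 CPM at 6.5DDC. The earlier time points overlapped and the last lay below both. E2f4 fell 1.76-fold from 4.5DDC to 6.5DDC (log2 fold change −0.81, SE 0.19; edgeR quasi-likelihood, Benjamini-Hochberg adjusted p = 0.0198), by −0.47 within replicate 1 and −1.01 in replicates 2 and 3. This call needed the highest and the lowest library of the gene: E2f4 was at −0.68 when replicate 2 of 4.5DDC was left out (edgeR quasi-likelihood, Benjamini-Hochberg adjusted p = 0.0763) and at −0.64 when replicate 2 of 6.5DDC was (adjusted p = 0.0628).

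E2f5 (chr3:14578641-14606309) measured 128, 97.1 and 143 CPM at 4.5DDC, 129.6, 106 and 99.4 CPM at 5.5DDC and 145, 116 and 99.6 CPM at 6.5DDC. The 3 time points covered the same range, and the spread within each, with SDs of 23.3, 15.9 and 23.01 CPM, was larger than the distance between the means of 123, 112 and 120.3 CPM. Over the full interval E2f5 changed by a log2 value of −0.029, with a 95% interval from −0.46 to 0.40 (edgeR quasi-likelihood, Benjamini-Hochberg adjusted p = 0.928). It was 0.18 within replicate 1 and −0.13 in replicates 2 and 3, and it turned positive without replicate 1 (0.0028) or 3 (0.095) of 4.5DDC or replicate 3 of 6.5DDC (0.096).

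The atypical factors E2f7 and E2f8, which carry a pair of DNA-binding domains and repress E2F targets late in S phase, had the largest falls among the 10 genes. E2f7 (chr10:110745439-110787384) stood at 50.9, 55.7 and 64.8 CPM at 4.5DDC, at 31.6, 39.7 and 46.0 CPM at 5.5DDC and at 15.1, 15.7 and 13.1 CPM at 6.5DDC. None of its time points overlapped. The fall from 4.5DDC to 6.5DDC was 3.89-fold (log2 fold change −1.96, SE 0.19, 95% interval −2.38 to −1.55; edgeR quasi-likelihood, Benjamini-Hochberg adjusted p = 0.000844), with −1.74 within replicate 1 and −2.05 in replicates 2 and 3.

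E2f8 (chr7:48866429-48881596) measured 48.4, 56.8 and 58.5 CPM at 4.5DDC, 31.3, 38.4 and 45.0 CPM at 5.5DDC and 20.5, 18.1 and 13.0 CPM at 6.5DDC, again with no overlap between time points. It fell 3.18-fold (log2 fold change −1.67, SE 0.21; edgeR quasi-likelihood, Benjamini-Hochberg adjusted p = 0.00173), by −1.24 within replicate 1 and −1.90 in replicates 2 and 3. An opposite-strand transcript, Gm2788, shares 11.2% of the exonic bases of E2f8, and the sources used here do not say whether counting used strand, so a part of these counts is uncertain.

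The pocket proteins moved in different directions. Rbl1 (p107; chr2:157145893-157204534), whose gene is an E2F target in cycling cells, had 89.8, 95.9 and 120.4 CPM at 4.5DDC, 62.0, 89.2 and 76.5 CPM at 5.5DDC and 73.0, 54.7 and 45.0 CPM at 6.5DDC. The 4.5DDC libraries were the highest, and the later times overlapped. Rbl1 fell 1.77-fold from 4.5DDC to 6.5DDC (log2 fold change −0.83, SE 0.21; edgeR quasi-likelihood, Benjamini-Hochberg adjusted p = 0.0249), by −0.30 within replicate 1 and −1.11 in replicates 2 and 3. Without 1 library the call was lost for replicate 2 or 3 of 4.5DDC (Benjamini-Hochberg adjusted p = 0.0642 and 0.075, edgeR quasi-likelihood) and for replicate 2 or 3 of 6.5DDC (adjusted p = 0.0922 and 0.0676).

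Rbl2 (p130; chr8:91070057-91123844), the pocket protein that predominates in resting cells, measured 21.6, 21.2 and 26.9 CPM at 4.5DDC, 32.0, 36.4 and 35.9 CPM at 5.5DDC and 39.1, 50.6 and 42.9 CPM at 6.5DDC. Every library of a later time lay above every library of the earlier ones. Rbl2 rose 1.90-fold from 4.5DDC to 6.5DDC (log2 fold change 0.93, SE 0.17; edgeR quasi-likelihood, Benjamini-Hochberg adjusted p = 0.00634), by 0.85 within replicate 1 and 0.96 in replicates 2 and 3. With limma on log2(FPKM + 1) the change was 0.52 (Benjamini-Hochberg adjusted p = 0.0531) and with 0.1 added it was 0.58 (adjusted p = 0.0545), neither of them called, where edgeR's quasi-likelihood test on counts kept it with each library left out. Of the exonic bases of Rbl2, 20.97% lie opposite exons of Aktip and Gm45464, and Aktip itself had a log2 fold change of 0.76 (edgeR quasi-likelihood, Benjamini-Hochberg adjusted p = 0.00484), so the level of Rbl2 is uncertain by the reads they may share.

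Rb1 (chr14:73183673-73325822), the retinoblastoma protein, gave 79.7, 69.2 and 94.2 CPM at 4.5DDC, 77.2, 97.0 and 100.1 CPM at 5.5DDC and 82.4, 126 and 120.5 CPM at 6.5DDC. Replicates 2 and 3 of 6.5DDC were above all other libraries, and replicate 1 lay within the range of 4.5DDC. The log2 fold change of 0.43 (SE 0.19) did not pass the test (edgeR quasi-likelihood, Benjamini-Hochberg adjusted p = 0.139), and it was 0.048 within replicate 1 and 0.61 in replicates 2 and 3. Without replicate 1 of 6.5DDC it was 0.60 and called (edgeR quasi-likelihood, Benjamini-Hochberg adjusted p = 0.0384). Exons of Lpar6 and Rcbtb2 on the opposite strand cover 14.9% of the exonic bases of Rb1.

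**Figure D2:**
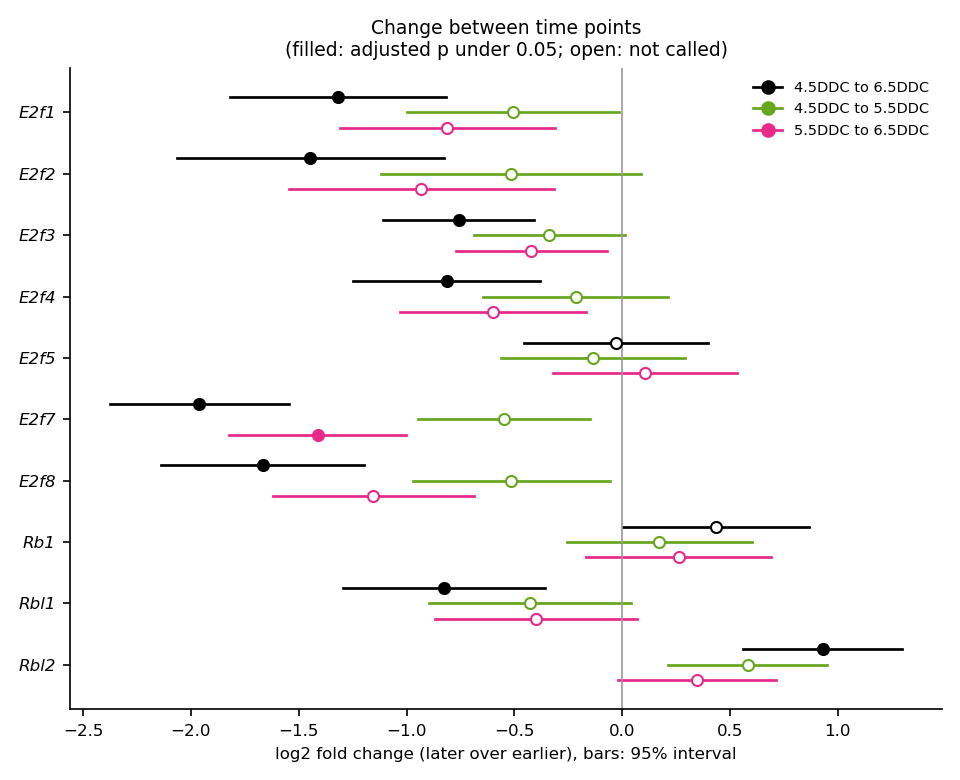
Log2 fold change of each of the 10 genes (x axis) with its 95% interval, for 4.5DDC to 6.5DDC (black), 4.5DDC to 5.5DDC (green) and 5.5DDC to 6.5DDC (pink), from edgeR without a block and with filled points for called changes. Over the full interval 7 genes lie to the left of 0 and Rbl2 to the right, and the only called change of the shorter intervals is E2f7 from 5.5DDC to 6.5DDC (−1.41).

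The shares of the family members in their summed level differed between the time points. Summed over the 7 E2F genes, 160 ± 10.4 CPM per exonic kilobase at 4.5DDC (SD, n = 3) became 134 ± 2.30 at 5.5DDC and 112 ± 16.5 at 6.5DDC. E2f5 made up 42.8 ± 6.81% of this sum at 4.5DDC, 46.8 ± 6.76% at 5.5DDC and 60.2 ± 4.18% at 6.5DDC, and its libraries ranged from 35.0 to 47.0%, from 41.0 to 54.2% and from 55.4 to 63.0%. The 6.5DDC shares of E2f5 thus lay above all others while its own level did not pass the test. E2f7 had the smallest share, with 3.94 ± 0.243% at 4.5DDC and 1.47 ± 0.201% at 6.5DDC. E2f1 went from 9.12 to 5.22% and E2f4 from 20.2 to 16.4%. A share depends on the other genes in the sum, and these shares were not tested.

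Among the pocket proteins Rbl1 held the largest mean share at 4.5DDC and Rb1 at the later times, again per exonic kilobase. In mean FPKM, Rbl1 was still above Rb1 at 5.5DDC (13.79 against 11.04). Rbl1 made up 50.7 ± 2.32%, 38.9 ± 2.31% and 28.9 ± 9.02% of the sum of the 3 genes at 4.5, 5.5 and 6.5DDC (SD, n = 3), and Rb1 40.1 ± 2.34%, 46.8 ± 1.86% and 53.8 ± 8.53%. Rbl2 increased its share from 9.15 ± 0.101% through 14.3 ± 1.06% to 17.3 ± 0.815%. The ratio of Rbl2 to Rbl1 was 0.190, 0.175 and 0.177 in replicates 1, 2 and 3 of 4.5DDC, 0.410, 0.324 and 0.371 at 5.5DDC and 0.425, 0.733 and 0.757 at 6.5DDC. It was higher in each library of a later time than in any earlier library, and at 6.5DDC replicate 1 stayed near the 5.5DDC values. On the FPKM scale the means were 0.329, 0.512 and 0.952, but the later times overlapped, since replicate 1 had 0.652 at 5.5DDC and 0.559 at 6.5DDC.

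**Figure D3:**
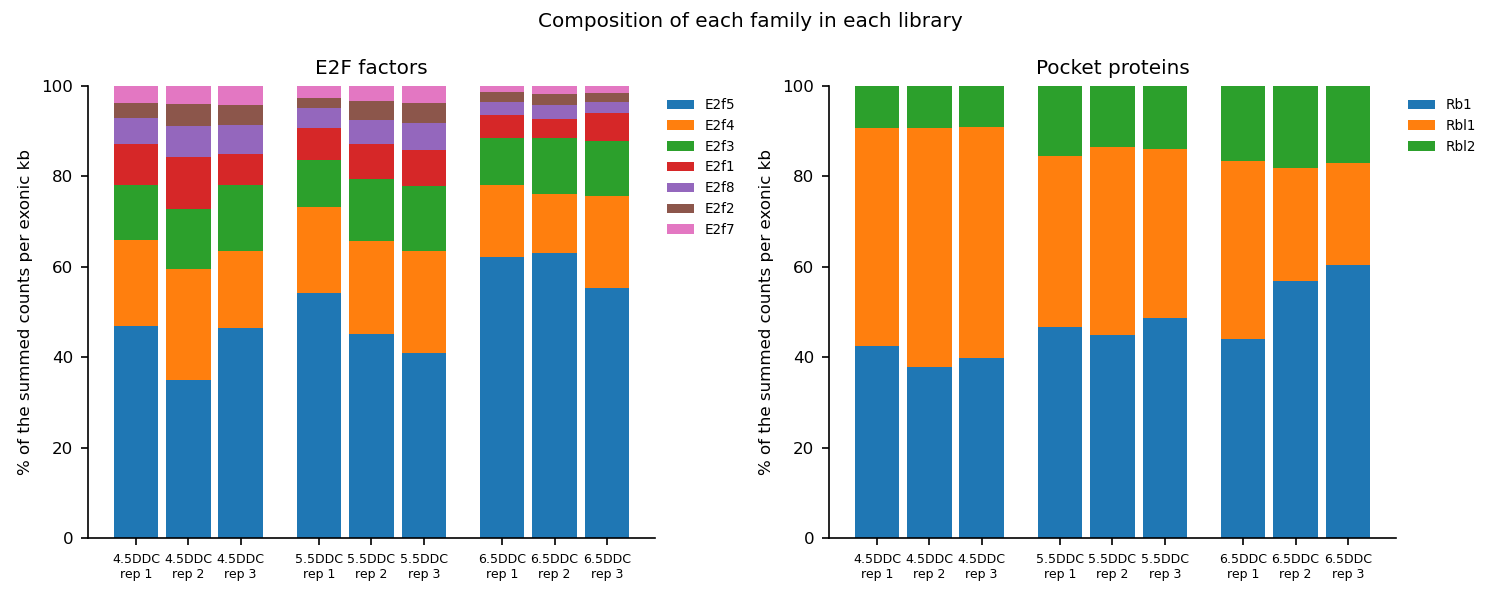
Share of each E2F gene (left, percent of the summed CPM per exonic kilobase of 7 genes) and of each pocket protein (right, 3 genes) in each of the 9 libraries, as stacked bars. The E2f5 share is between 35.0 and 47.0% at 4.5DDC and between 55.4 and 63.0% at 6.5DDC, and the mean Rbl1 share goes from 50.7 to 28.9%.

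From 4.5DDC to 5.5DDC no change of the 10 genes was called by edgeR's quasi-likelihood test. E2f1, E2f7, E2f8 and Rbl1 were lower in all 5.5DDC libraries than in all 4.5DDC libraries (13.7% of all genes were), and Rbl2 was higher in all (11.7% of all genes). By edgeR's quasi-likelihood test 0 of the 10 genes were called lower and 0 higher (0.0136 and 0.0611% of all genes), and 4 had an unadjusted p under 0.05 (15.4% of all genes), namely E2f1, E2f7, E2f8 and Rbl2. With the replicate number as a block the count was also 0, where 0.17% of all genes were called lower and 1.27% higher. DESeq2 called 1, Rbl2, at a log2 fold change of 0.58 (Benjamini-Hochberg adjusted p = 0.0482), where edgeR quasi-likelihood gave 0.184; of all genes DESeq2 called 1.38% of all genes lower and 1.97% higher. The median log2 fold change of the 10 genes was −0.38, with −0.47 within replicate 1 and −0.34 in replicates 2 and 3, against 0.0094 over all genes.

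In the following interval, 5.5DDC to 6.5DDC, E2f7 fell 2.66-fold and the other 9 genes did not pass the test. The 6.5DDC libraries lay below all 5.5DDC libraries for E2f1 to E2f4, E2f7 and E2f8 (13.9% of all genes) and above them for Rbl2 (11.5% of all genes). The log2 fold change of E2f7 was −1.41 (SE 0.18; edgeR quasi-likelihood, Benjamini-Hochberg adjusted p = 0.0386), with −1.05 within replicate 1 and −1.56 in replicates 2 and 3. So 1 of 10 was called lower (0.197% of all genes) and 0 higher (0.0271%), with 6 at an unadjusted p under 0.05 (18.5% of all genes). DESeq2 called 4 lower, where it called 2.88% of all genes lower and 1.68% higher. E2f7 was no longer called without replicate 1 of 4.5DDC (adjusted p = 0.0675), replicate 2 or 3 of 5.5DDC (0.151 and 0.185) or replicate 2 or 3 of 6.5DDC (0.253 and 0.104; edgeR quasi-likelihood with Benjamini-Hochberg adjustment), and the count was then 0. Fitting only the 6 libraries compared (0.0973) and limma on log2 FPKM also left 0 called, and a fit of replicates 2 and 3 alone, chosen after seeing the data, called 3 lower (2.51% of all genes lower, 2.46% higher).

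E2f8 came next, with a log2 fold change of −1.15 (SE 0.21; edgeR quasi-likelihood, Benjamini-Hochberg adjusted p = 0.0695), −0.61 within replicate 1 and −1.43 in replicates 2 and 3. With the replicate number as a block it was called as well (edgeR quasi-likelihood, Benjamini-Hochberg adjusted p = 0.0471), which made 2 genes called, where 0.536% of all genes were called lower and 0.787% higher. Leaving out replicate 1 of 6.5DDC also made 2, with E2f8 at an adjusted p of 0.0375 (edgeR quasi-likelihood, Benjamini-Hochberg). That fit called 130 of all 15145 genes lower and 66 higher. E2f1, E2f2 and E2f8 were the genes that DESeq2 called beside E2f7, at −0.80, −0.92 and −1.14. The median log2 fold change of the 10 genes was −0.51, −0.10 within replicate 1 and −0.76 in replicates 2 and 3, against 0.019 over all genes. For Rbl1 the signs of the within-replicate values differed, at 0.23 within replicate 1 and −0.73 in replicates 2 and 3, and for E2f3 they were −0.078 and −0.58.

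Set side by side, the log2 fold changes of the earlier and the later interval were −0.51 and −0.81 for E2f1, −0.34 and −0.42 for E2f3, −0.22 and −0.60 for E2f4, −0.55 and −1.41 for E2f7, −0.43 and −0.40 for Rbl1, and 0.58 and 0.35 for Rbl2. They were −0.51 and −0.93 for E2f2, −0.51 and −1.15 for E2f8, 0.17 and 0.26 for Rb1, and −0.14 and 0.11 for E2f5. Both intervals use the 5.5DDC libraries, so the values are not independent. A test of the difference between the intervals called 0 of all genes (0%), with 701 genes (4.76%) and 1 of the 10, E2f7, at an unadjusted p under 0.05. The difference for E2f7 was −0.86 (95% interval −1.55 to −0.18; edgeR quasi-likelihood, Benjamini-Hochberg adjusted p = 0.76). DESeq2 and limma voom called 0 genes, with 770 and 1008 at an unadjusted p under 0.05. Limma on log2 FPKM called 3 genes, and edgeR's quasi-likelihood test called 1 without replicate 2 of 5.5DDC and 2 without replicate 1 of 6.5DDC, none of them among the 10.

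Some partners of these factors form the DREAM complex, in which E2f4 or E2f5, a DP protein, Rbl1 or Rbl2 and the MuvB core silence cell cycle genes, while B-Myb (Mybl2) and Foxm1 join MuvB to activate mitotic genes. The list of partners used here also holds Mybl2, Foxm1 and E2f6, which are not among those parts of DREAM. Of 10 listed partners 4, with Mybl2 and Foxm1 among them, were called lower from 4.5DDC to 6.5DDC and 0 higher (9.53 and 9.21% of all genes), and the median log2 fold change was −0.31 (−0.24 within replicate 1, −0.54 in replicates 2 and 3). Mybl2 had means of 23.6, 13.3 and 4.45 FPKM at 4.5, 5.5 and 6.5DDC and fell by 2.03 on the log2 scale (edgeR quasi-likelihood, Benjamini-Hochberg adjusted p = 0.00125). Foxm1, at 54.4, 39.0 and 18.5 FPKM, fell by 1.66 (edgeR quasi-likelihood, Benjamini-Hochberg adjusted p = 0.000844). Tfdp1, the main DP partner, fell by 0.81 and Lin54, the DNA-binding subunit of MuvB, by 0.83 (edgeR quasi-likelihood, Benjamini-Hochberg adjusted p = 0.0162 and 0.0299). Tfdp1 missed the threshold without replicate 2 of 4.5DDC (0.0635) or of 6.5DDC (0.0713), which left 2 partners called in each case. Lin54 was lost without any library of 4.5DDC (0.0521, 0.0712 and 0.0844), replicate 2 of 5.5DDC (0.0516) or replicate 2 or 3 of 6.5DDC (0.0829 and 0.0522). It was not called by limma on log2 FPKM (Benjamini-Hochberg adjusted p of 0.116 and 0.132 with 1 and 0.1 added) or by edgeR's quasi-likelihood test on only the 6 libraries compared (0.0608) either. At the other end of the list stood Lin52, with 0.22 (edgeR quasi-likelihood, Benjamini-Hochberg adjusted p = 0.437).

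Upstream of the pocket proteins are the cyclins and kinases of G1, which phosphorylate them, and the CDK inhibitors that hold these kinases back. Of 8 G1 cyclins and kinases 7 were called lower and 0 higher over the full interval (again beside 9.53 and 9.21% of all genes), and the median log2 fold change was −1.14 (−0.66 within replicate 1, −1.15 in replicates 2 and 3). Cyclin E1 (Ccne1) fell by 2.29 and cyclin D1 (Ccnd1) by 2.15 on the log2 scale (edgeR quasi-likelihood, Benjamini-Hochberg adjusted p = 0.00494 and 0.0134), and the exception was Ccnd2 at −0.38 (adjusted p = 0.278). Ccnd1 missed the threshold without replicate 2 of 6.5DDC (edgeR quasi-likelihood, Benjamini-Hochberg adjusted p = 0.0598). The count of 7 became 2 without that library, 3 without replicate 2 of 4.5DDC and 4 without replicate 3 of 4.5DDC. Of all genes, these fits called 551 of 14872, 644 of 15140 and 1151 of 15082 lower, against 1405 of 14742 with all libraries.

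Of 7 CDK inhibitors 1 was called higher and 1 lower, near the shares of all genes (9.21% higher, 9.53% lower), and the median was −0.19 (−0.17 within replicate 1, −0.16 in replicates 2 and 3). Cdkn1b (p27) rose by 0.50 and Cdkn2b (p15) fell by 1.05 on the log2 scale (edgeR quasi-likelihood, Benjamini-Hochberg adjusted p = 0.0299 and 0.0249). Neither call held without replicate 1 or 2 of 4.5DDC or replicate 2 or 3 of 6.5DDC, where the count was 0, with adjusted p of 0.0598, 0.11, 0.121 and 0.0593 for Cdkn1b and 0.0681, 0.0786, 0.081 and 0.0673 for Cdkn2b (edgeR quasi-likelihood, Benjamini-Hochberg). Cdkn1b was also lost without replicate 3 of 4.5DDC (0.0522) or replicate 2 of 5.5DDC (0.059), and the latter left 1 inhibitor called. Limma on log2 FPKM did not call Cdkn1b (Benjamini-Hochberg adjusted p of 0.0571 and 0.066), and edgeR's quasi-likelihood test on only the 6 libraries compared called neither (0.0558 for Cdkn1b, 0.0618 for Cdkn2b). Cdkn2a, at −1.32 and not called (edgeR quasi-likelihood, Benjamini-Hochberg adjusted p = 0.0743), was called without replicate 3 of 4.5DDC (0.0343) or replicate 1 of 5.5DDC (0.0446), the latter with 3 inhibitors called, and by DESeq2 (0.0266).

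Downstream, the known targets of activator E2Fs in S phase and the mitotic genes of MuvB were lower at 6.5DDC almost without exception. Of 32 S phase targets 30 were tested, since Cdt1 and Gins2 had no row, and 29 were called lower and 0 higher (9.53 and 9.21% of all genes; median log2 fold change −1.51). Uhrf1, which recruits the maintenance DNA methyltransferase, fell by 2.36 (edgeR quasi-likelihood, Benjamini-Hochberg adjusted p = 0.000844). Mcm5, a subunit of the replicative helicase, fell by 2.097, and Rrm2, of ribonucleotide reductase, by 2.06. Pola1, the catalytic subunit of DNA polymerase alpha, was the exception at −0.20 (edgeR quasi-likelihood, Benjamini-Hochberg adjusted p = 0.613), and without replicate 3 of 6.5DDC its sign turned (0.049). Some S phase calls were lost without replicate 2 of 6.5DDC, namely Tyms, Gins1, Rrm1 and Ccna2 (edgeR quasi-likelihood, Benjamini-Hochberg adjusted p = 0.108, 0.0962, 0.0736 and 0.0527). Orc1 was not called by limma on log2(FPKM + 0.1) (Benjamini-Hochberg adjusted p = 0.0899). All 24 G2 and M phase genes were called lower, with a median of −1.17. The kinase genes Plk1 and Aurkb fell by 1.79 and 1.68, and Ccnf, which encodes cyclin F, by 1.69. Cdk1 and Ccnb2 missed the threshold without replicate 2 of 6.5DDC (edgeR quasi-likelihood, Benjamini-Hochberg adjusted p = 0.0535 and 0.0688). Nusap1 had the smallest change of the list, a fall by 0.75 (edgeR quasi-likelihood, Benjamini-Hochberg adjusted p = 0.0499), and was no longer called without any of the 9 libraries except replicate 1 of 6.5DDC (0.0506 to 0.132), nor with RLE scaling (0.0537), the stricter filter (0.054), limma on log2 FPKM (0.0566 and 0.0685) or only the 6 libraries compared (0.0921).

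Levels summed over the S phase and the G2 and M phase lists were lower at each later time in each of the 3 replicate numbers, though by different steps. The S phase targets summed to 2225, 2652 and 2746 FPKM in replicates 1, 2 and 3 of 4.5DDC, to 1231, 1617 and 1660.01 FPKM at 5.5DDC and to 1210.02, 927 and 744 FPKM at 6.5DDC, with Nasp as the most abundant gene. Replicate 1 thus had nearly its 6.5DDC level at 5.5DDC already. The G2 and M phase genes, led by Top2a, summed to 1875, 2146 and 2252 FPKM, then to 1403, 1626 and 1723 FPKM, and at 6.5DDC to 1183, 953 and 648 FPKM. Within replicate 1 the median change over the full interval was −0.94 for the S phase targets and −0.62 for the G2 and M phase genes, and in replicates 2 and 3 it was −1.87 and −1.54.

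The promoter windows of the lists held the E2F letters to different degrees. Of 25 S phase targets with a window 12 (48%) had a match, of 20 G2 and M phase genes 1 (5%) and of 8 partners 2 (25%), against 2.605% of all genes with a window. Of 5 G1 cyclins and kinases 1 (20%) and of 6 CDK inhibitors 1 (16.67%) had one.

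**Figure D4:**
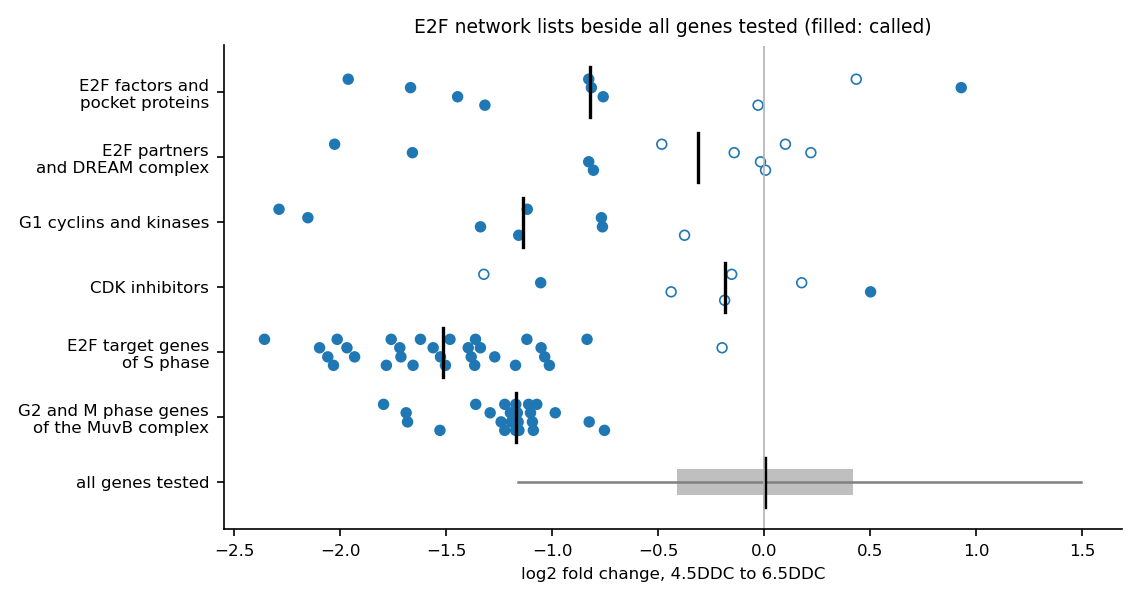
Log2 fold change from 4.5DDC to 6.5DDC (x axis) of the 10 genes and of each list, with a point per gene, filled where called, a black bar at the median, and at the bottom all genes tested (box 25th to 75th percentile, line 5th to 95th). The medians are −0.82 for the 10 genes, −1.51 for the S phase targets and −1.17 for the G2 and M phase genes, beside 0.0040 for all genes.

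Split by interval, the lists gave few calls. From 4.5DDC to 5.5DDC edgeR's quasi-likelihood test called 0 genes in each list, while 27 of the 30 S phase targets, 4 G2 and M phase genes, 3 partners, 2 G1 genes and 1 CDK inhibitor had an unadjusted p under 0.05, beside 15.4% of all genes. The shares of the G2 and M phase genes and of the CDK inhibitors were thus near that of all genes. DESeq2 called 17 S phase targets, 1 partner and 1 G1 gene in that interval and 0 of the other lists (1.38% of all genes lower, 1.97% higher). The S phase targets already had a median of −0.81 (−0.77 within replicate 1, −0.79 in replicates 2 and 3), and the G2 and M phase genes one of −0.46 (−0.46 and −0.44). Without replicate 1 of 6.5DDC 1 S phase target was called, where 6 of all 15145 genes were called lower and 22 higher.

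From 5.5DDC to 6.5DDC 1 partner (Foxm1, −1.34), 1 S phase target (Uhrf1, −1.43) and 3 G2 and M phase genes (Plk1, −1.45; Ccnf, −1.27; Aurkb, −1.21) were called lower by edgeR (0.197% of all genes), and DESeq2, with 2.88% of all genes lower, called 13 S phase targets and 9 G2 and M phase genes. These calls turned on single libraries, and none of the 5 genes was called by limma on log2 FPKM or in a fit of only the 6 libraries compared. Uhrf1 missed the threshold without any of the 9 libraries except replicate 1 of 6.5DDC, and without that one 12 S phase targets, 8 G2 and M phase genes and 2 partners were called. The fit without replicate 1 of 6.5DDC called 130 of all 15145 genes lower and 66 higher. Foxm1 was lost, leaving 0 partners, without replicate 1 of 4.5DDC, any library of 5.5DDC, or replicate 2 or 3 of 6.5DDC. The G2 and M phase count became 0 without replicate 1 or 3 of 4.5DDC or any of these 5 libraries of 5.5DDC and 6.5DDC, and 1 without replicate 2 of 4.5DDC. Of the G1 genes and the CDK inhibitors 0 were called by edgeR, with 4 of 8 and 2 of 7 at an unadjusted p under 0.05 (18.5% of all genes) and 1 and 0 called by DESeq2, and 1 G1 gene was called with the replicate block (Ccnd1) and 1 without replicate 1 of 6.5DDC. At the same unadjusted level were 24 of 24 G2 and M phase genes, 21 of 30 S phase targets and 2 of 10 partners. Medians differed by replicate in this interval, at 0.020 for the S phase targets within replicate 1 and −1.10 in replicates 2 and 3, and at −0.24 and −1.08 for the G2 and M phase genes.

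Markers of the sorted cells and of other types were read beside these changes. All 8 NSC markers were measured, and they summed to 2190.9, 2541 and 2088 FPKM in replicates 1, 2 and 3 of 4.5DDC, to 3076, 2722 and 2973 FPKM at 5.5DDC and to 3005, 2883 and 3021 FPKM at 6.5DDC, with Vim the most abundant. Vim alone was between 1235 and 2455 FPKM in the 9 libraries, so these sums say little about the other markers. Sox2, listed here as a marker of NSCs whether or not they divide, was between 78.2 and 96.0 FPKM in all 9 libraries. Prom1, the gene of the sorted protein, was at 89.3, 62.8 and 85.2 FPKM at 4.5DDC and at 207, 187 and 154 FPKM at 6.5DDC, and rose by 1.19 on the log2 scale (edgeR quasi-likelihood, Benjamini-Hochberg adjusted p = 0.00363). Sox3 fell by 1.80 (edgeR quasi-likelihood, Benjamini-Hochberg adjusted p = 0.033), a call that was lost without replicate 2 of 4.5DDC (0.125), replicate 1 of 6.5DDC (0.0666) or replicate 2 of 6.5DDC (0.118). Limma voom (Benjamini-Hochberg adjusted p = 0.0673) and limma on log2 FPKM (0.0715 and 0.0757) did not call Sox3. Prom1 and Sox3 were the 2 NSC markers called by edgeR, 1 in each direction (9.21% of all genes higher, 9.53% lower). Hes5 and Fabp7 were not called by edgeR without a block. In replicates 1, 2 and 3, Hes5 was at 2.55, 12.9 and 1.65 FPKM at 4.5DDC and at 0.684, 0.829 and 1.90 FPKM at 6.5DDC. Fabp7 was at 142, 439 and 504 FPKM at 4.5DDC and at 655, 911 and 737 FPKM at 6.5DDC.

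Of 10 neuronal markers 9 were tested, Tubb3 having no row, and 1 was called higher (9.21% of all genes), Map2, a microtubule protein of dendrites, which rose by 1.65 (edgeR quasi-likelihood, Benjamini-Hochberg adjusted p = 0.00768; 0.76 within replicate 1, 1.94 in replicates 2 and 3). The median log2 change of the 9 markers was 0.47, with 0.76 within replicate 1 and 0.48 in replicates 2 and 3. Over the 9 libraries together Stmn2 was the most abundant gene in the neuronal sums given above, although Nefm was higher than Stmn2 in all 6 libraries of 4.5DDC and 5.5DDC. In those sums replicate 1 was the lowest library at each time. The part of neurons in the changes of the E2F and pocket protein genes was not tested.

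Markers of other cell types had low levels. The 6 pluripotency markers summed to 0.393 to 2.28 FPKM per library, with Dppa5a the most abundant over all 9 libraries, and Pou5f1 was listed at 0 in 6 of 9 libraries; 1 was tested and 0 called by edgeR, DESeq2 or limma. Endoderm markers summed to 5.80, 4.68 and 2.08 FPKM in replicates 1, 2 and 3 of 4.5DDC, to 4.44, 2.39 and 2.68 FPKM at 5.5DDC and to 13.7, 3.56 and 3.38 FPKM at 6.5DDC. Gata4 was the most abundant over the 9 libraries through replicate 1 of 6.5DDC (7.62 FPKM), while Cldn6 was higher than Gata4 in 5 of them. Of the 4 tested 0 were called by edgeR without a block or by DESeq2, with 0 at an unadjusted p under 0.05 (35.4% of all genes), and their median over the full interval was 1.42 on the log2 scale (1.49 within replicate 1, 0.88 in replicates 2 and 3).

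The summed level of neural crest and mesenchyme markers was higher at both later times, with sums of 6.398, 8.87 and 5.62 FPKM at 4.5DDC, 11.6, 16.2 and 14.1 FPKM at 5.5DDC and 15.5, 13.5 and 16.9 FPKM at 6.5DDC, and Sox10 was at 0 in 7 of 9 libraries. From 4.5DDC to 5.5DDC edgeR called 0 of the 4 tested, and 1 of them had a negative value. The 4 tested had positive values over the full interval (median 1.24), 3 of them at an unadjusted p under 0.05 (35.4% of all genes). DESeq2 called 2 of them, where it called 1854 of all 14742 genes higher and 1827 lower. By edgeR 1 was called higher (9.21% of all genes), Twist1, the most abundant gene of the list and the one with the smallest change, which rose by 0.74 (edgeR quasi-likelihood, Benjamini-Hochberg adjusted p = 0.0276). The part of these cells in the results was not tested. Twist1 missed the threshold without any library of 4.5DDC (0.077, 0.0714 and 0.0609), replicate 2 of 5.5DDC (0.0544) or replicate 1 or 2 of 6.5DDC (0.0531 and 0.0792), and in a fit of only the 6 libraries compared (0.0509). Blood and microglia markers, led by Csf1r, summed to 0.194 to 0.938 FPKM with Aif1 at 0 in 7 of 9 libraries and Hbb-bt without a row, and the 1 tested gene was not called by edgeR or DESeq2, with 1 at an unadjusted p under 0.05.

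The genes whose profile over the 9 libraries was most like that of each of the 10 were sought among 11996 genes by the Pearson correlation of log2 CPM, as a description that rests on 9 points sharing time points and libraries. Nsl1, a kinetochore subunit, came first for both atypical factors, with 0.990 for E2f7 and 0.997 for E2f8, and E2f7 and E2f8 were also close to each other (0.987). Ncaph, of condensin, was second for E2f8 (0.995). For the activators, E2f2 was closest to Mdm1 (0.990) and Gfm2 (0.986), and E2f3 to Lpin2 (0.987) and to Cdc25a (0.981), the phosphatase that activates S phase kinases. E2f1 was closest to Gm5809 (0.994) and Gm5391 (0.990), processed pseudogenes whose reads may come from other genes, so these are uncertain.

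The repressors had Ddt (0.984) and Ddx39b (0.981) for E2f4, and Dpy19l1 (0.977) and Fam179b (0.964) for E2f5. Rbl1 was closest to Gm5446 (0.994), another processed pseudogene, and to Brip1 (0.989), a helicase of DNA repair. Rbl2 was closest to Enpp4 and Rab5b (0.990 each) and Rb1 to Camsap2 (0.983) and Atrnl1 (0.980). No other of the 10 genes was among the first 2 for Rb1, Rbl1 or Rbl2.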

How the data were processed

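RNA of prominin-1 sorted cells was grouped by the time points in the labels. Per the submitters' processing notes, reads were converted with bcl2fastq 1.8.3, mapped to GRCm38 with TopHat2 2.0.4, counted with HTSeq 0.6.1 and converted to FPKM with Cufflinks 2.1.1. The authors deposited counts per gene without normalization. For 98 of 38197 symbols (0.203 to 0.232% of all counts) the deposited values were not whole, as in expected or estimated counts, although whole counts had been assumed when the tests were chosen, and they were rounded. The FPKM values were used as the authors deposited them, and the deposited log2 values were not used.

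In R 4.3.3, edgeR 4.0.16 was run with filterByExpr, TMM (factors 0.951 to 1.04) and a quasi-likelihood fit of all 9 libraries with the time point as factor (6 residual degrees of freedom, common dispersion 0.0733), Benjamini-Hochberg adjustment over 14742 genes and a threshold of 0.05. Intervals are 95% intervals. Within-replicate changes are differences of log2 CPM with a prior count of 2. The same code was tested on simulated data. The simulation gave all genes the same dispersion, smaller than the common dispersion found here, and no difference between replicates. It therefore cannot show how the fit behaves with replicate 1 standing apart. Alternatives were RLE or no scaling, no filter, a filter of 1 CPM in 3 libraries, DESeq2 1.42.0, limma 3.58.1 (voom, or log2 FPKM with 1 or 0.1 added and a filter at 0.5 FPKM), a fit of the 6 libraries compared, a replicate block and each library left out. Tables and plots used Python 3.11.15, matplotlib 3.10.9, scipy 1.17.1, numpy 2.4.6 and pandas 2.3.3.

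All 10 genes are named. Of each pathway list the text names the genes with the largest and smallest change from 4.5DDC to 6.5DDC and those called, by example where many were. Of the marker lists it names those called and some that were not. The likeness search was limited to tested genes whose mean reached 2 FPKM. The genes and lists were chosen with earlier results of these data known. Exons and positions come from GENCODE M21, promoter windows from RefSeq. The labels number the replicates without saying what a number shares. Deviations from the time point mean correlated between equal numbers at 0.743, 0.386 and 0.452 for 4.5DDC with 5.5DDC and at 0.454, 0.367 and 0.197 for 5.5DDC with 6.5DDC. All exceed 0.1, and the number was read as pairing adjacent time points, although replicates 2 and 3 correlated at 0.225 to 0.406 across unlike numbers and so are not told apart as pairs. The results come from the fit without a block, and for adjacent time points the blocked value stands beside a result whose call it changes. The number also sets replicate 1 apart. A floor of 3 counts is 0.118 to 0.271 CPM, for counting error only.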

Additional observations from a re-analysis of the deposited data

How the results depend on the processing

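Across the alternatives chosen with the tests, the results of single genes among the 10 kept direction and side of the threshold in 539 cases, lost a call in 16, gained one in 9 and turned sign in 6. The 539 include changes that were not called in either fit. Of 19 alternatives each, calls were lost in 8 for E2f7 from 5.5DDC to 6.5DDC. Over the full interval they were lost in 4 for Rbl1 and in 2 each for E2f4 and Rbl2. Over the full interval the count called was 6 to 9 with 1 library left out, 7 with limma on FPKM and 8 otherwise. The replicate block gave 8 there; 4.5DDC and 6.5DDC share only a number, with correlations of 0.383, −0.040 and −0.215. With that block 3 CDK inhibitors (Cdkn2a added, at an edgeR quasi-likelihood, Benjamini-Hochberg adjusted p of 0.0418), 3 of 4 endoderm, 3 of 4 neural crest and mesenchyme, 3 of 9 neuronal and 3 of 8 NSC markers were called. Of all 14742 genes, 1505 were called lower and 1913 higher with the block.

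From 4.5DDC to 5.5DDC DESeq2 called 1 of the 10. From 5.5DDC to 6.5DDC, in place of 1, the count was 2 with no scaling, no filter or the replicate block, 4 with DESeq2, 0 with limma on log2 FPKM (1 or 0.1 added) or only the 6 libraries compared, and 0 to 2 with 1 library left out. Settings chosen after seeing the data gave 2 (a block for replicate 1) and 3 (replicates 2 and 3 only). In place of 2 CDK inhibitors, limma on log2 FPKM called 1 with either constant and the fit of 6 libraries 0. With 1 library left out the counts from 4.5DDC to 6.5DDC were 2 to 5 partners, 2 to 7 G1 genes and 0 to 3 CDK inhibitors. Apart from the results given here and in the report, the paired fit of adjacent time points changed no call of the 10 genes.

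The sign of E2f5 turned from 4.5DDC to 6.5DDC with the stricter filter (0.0041), with only 6 libraries (0.0034) and in the range of −0.19 to 0.096 with 1 library left out, and from 5.5DDC to 6.5DDC in a range of −0.049 to 0.23. Pola1 ranged from −0.53 to 0.049. None of these was called, and the cause was not tested. With 3 libraries per time point and a common dispersion of 0.0733, changes of moderate size can stay uncalled in the full interval as well as in the shorter ones. How large a change each interval could call was not tested.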
